A study of Mus musculus with 9 samples.

Results

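The enzymes described here build purine and pyrimidine nucleotides and turn them into the building blocks of DNA. They form a fixed list of 39 genes: 15 of purine synthesis and salvage, 8 of pyrimidine synthesis and salvage, 4 nucleoside diphosphate kinases, 11 of deoxynucleotide supply, and Nt5e, which splits nucleotides outside the cell. A member was taken from a probe set to which the platform annotation gives its symbol and no other. All 39 were found among the 19937 genes with such a probe set, and no filter on dim genes was used. The rule uses names and pathways and no measured value, but the list was drawn up with earlier results of these data known.

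RNA came from RN2, a mouse acute myeloid leukaemia line that carries MLL-AF9 and NrasG12D, and all groups share that genotype. Cells held a doxycycline-inducible TRMPV vector with a short hairpin RNA, and every group, the control included, received 1 ug/ml doxycycline for 96 h. Brg1, which Smarca4 encodes, is the ATPase of the SWI/SNF chromatin remodelling complex. It was targeted by Brg1sh_3232, Brg1sh_3364 and Brg1sh_4935, with 2 Affymetrix arrays for each hairpin. The control hairpin, Rluc, targets Renilla luciferase and had 3 arrays. The control's cell line label has the extra term TtTMPV, so a difference between the lines and the effect of the hairpins cannot be told apart by label. The material is 1 line in culture, and nothing in the labels shows whether the replicate arrays are separate cultures. The p-values therefore cover the spread between these arrays only, and that spread may be technical.

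Purine rings are built atom by atom on phosphoribosyl pyrophosphate until inosine monophosphate (IMP) is reached, and IMP is then turned into adenine or guanine nucleotides. The pyrimidine ring is made before the ribose is attached, and uridine nucleotides are then turned into cytidine nucleotides. Ribonucleotide reductase removes the ribose hydroxyl to give deoxynucleotides, thymidylate synthase supplies the base particular to DNA, and salvage enzymes re-use bases and nucleosides. Dividing leukaemia cells draw heavily on these routes, and several drugs used against leukaemia act on them. Many of the genes are textbook targets of Myc, a transcription factor that binds the E-box CACGTG.

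Expression is given as deposited, on a log2 scale after RMA, in which background is subtracted, arrays are brought to a common distribution and the probes of a set are combined. Array medians lay between 7.39 and 7.49. Smarca4 stood at 11.79, 11.77 and 11.79 in the Rluc arrays and between 10.67 and 10.90 in the 6 knockdown arrays, a fall of 1.00 with Brg1sh_3232, 0.99 with Brg1sh_3364 and 1.05 with Brg1sh_4935. Of 6 myeloid markers, Ptprc (0.31), Spi1 (0.26) and Itgam (0.40) rose and Mpo (-0.87) and Cebpa (-0.61) fell in the mean of the hairpins, and Kit (0.02) was not called; Ptprc stood at 12.15 or higher in every array. Of 6 markers of other cell types, Pecam1, an endothelial gene that myeloid cells also express, rose with every hairpin (0.56 in the mean). Cd3e, Gata1, Klf1, Epcam and Col1a1 were called with none; the T cell gene Cd3e, for example, read 6.87 to 7.17. Of 8 macrophage markers 7 rose in the mean of the hairpins, with list medians of 0.88 with Brg1sh_3232, 0.40 with Brg1sh_3364 and 0.98 with Brg1sh_4935. Myc fell by 0.26, 1.01 and 0.54 in the same order of hairpins. In bulk RNA, fewer cells of a type and less RNA per cell cannot be told apart.

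The E-box was searched in RefSeq promoter windows of assembly GRCm38.p6, from 250 bases before to 50 bases after a start; CACGTG reads the same on both strands. Of the 39 members 36 had a window, and 5 of them held the motif (13.9%): Atic, Dtymk, Nme1, Paics and Tyms. Over all genes with a window the share was 8.09% (2187 of 27025). The sequences below belong to the 3 of these genes that fell with at least 2 hairpins, in transcript direction and with the E-box in capitals. The printed stretches of Nme1, which has windows at 2 start sites, lie at chr11:93968273-93968504 and chr11:93968037-93968066. That of Tyms lies at chr5:30073646-30073875, all on the minus strand, and that of Paics at chr5:76951087-76951116 on the plus strand. The longer stretches hold only upstream bases outside every RefSeq gene span, and that of Tyms ends short of the start. In the order printed, the motif begins 18, 29, 61 and 203 bases before the start. The 30-base stretches are cut around the motif.
Nme1: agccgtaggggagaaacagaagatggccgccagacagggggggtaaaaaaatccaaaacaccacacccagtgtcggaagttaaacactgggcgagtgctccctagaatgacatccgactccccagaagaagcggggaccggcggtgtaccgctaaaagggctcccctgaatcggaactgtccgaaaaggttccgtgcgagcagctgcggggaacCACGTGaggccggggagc
Nme1, the other start site: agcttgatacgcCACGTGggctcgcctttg
Tyms: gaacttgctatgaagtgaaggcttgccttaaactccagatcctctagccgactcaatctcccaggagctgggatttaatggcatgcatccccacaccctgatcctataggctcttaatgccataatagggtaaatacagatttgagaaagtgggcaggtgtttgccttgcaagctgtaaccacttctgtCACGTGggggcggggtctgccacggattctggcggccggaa
Paics: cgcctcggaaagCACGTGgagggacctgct
A match is a description of these letters and was not tested for binding.

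Most of the enzymes were lower after Brg1 knockdown. Calls were made with limma at a Benjamini-Hochberg adjusted p below 0.05 over all 19937 genes. In the mean of the 3 hairpins against Rluc, 25 of 39 members fell, 5 rose and 9 were not called. Over all genes 15.0% fell and 13.3% rose. None of the members lay below the median level of all genes. When the 9969 genes at or above that level were fitted alone, 2999 fell and 2548 rose, a larger share than over all genes. The members' median change was -0.20 on the log2 scale, against -0.00 over all genes. When each array was centred on its median, the calls over all genes moved from 2652 higher and 2983 lower to 2178 and 3793, and those of the members to 5 and 27.

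Each hairpin was also set against the same 3 Rluc arrays. With Brg1sh_3232, 13 members fell and 4 rose, where 11.3% of all genes fell and 9.59% rose. With Brg1sh_3364, 21 fell and 5 rose, against 12.2% and 13.6% of all genes. With Brg1sh_4935, 22 fell and 3 rose, against 12.3% and 9.79%. A fit of the 9969 genes at or above the median level called 2438 lower and 1979 higher with Brg1sh_3232. It called 2375 and 2628 with Brg1sh_3364, and 2631 and 1893 with Brg1sh_4935. Under centring on the array median the split over all genes with Brg1sh_4935 moved from 1952 higher and 2450 lower to 1560 and 3375, and the members' split to 3 and 24. The counts of called members with Brg1sh_3364 (26) and Brg1sh_4935 (25) rest in part on single arrays: without Brg1sh_3364 replicate 2 the former was 17, and without either Brg1sh_4935 array the latter was 16.

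The 11 enzymes called lower with all 3 hairpins span every branch of synthesis: Prps1, Ppat, Adsl and Gmps of purine synthesis, Ctps and Uck2 of pyrimidine supply, the kinase Nme1, and Rrm1, Rrm2, Tyms and Dut of the deoxynucleotide branch. Tk2, Samhd1 and Nt5e were called higher with all 3. The share of all genes with calls shared between hairpins, or kept when arrays were left out, was not counted. The hairpins also share the Rluc arrays, so these counts do not show an excess among the members. When each array was left out in turn, 5 genes kept their calls with all 3 hairpins throughout: Ppat, Ctps, Tyms, Tk2 and Samhd1. In the mean of the hairpins 23 of 30 calls were kept throughout, and Prps2, Hprt, Aprt, Nme4, Nme6, Dctpp1 and Tk1 lost theirs under some array. With single hairpins 9 of 17, 16 of 26 and 14 of 25 calls were kept. A further 7 fell with 2 hairpins and 9 with 1, and 6 were called with none. Taking arrays rather than tests, 21 members had all 6 knockdown arrays below all 3 Rluc arrays, as 12.1% of all genes did, and 6 had them all above, as 10.7% did. The remaining 12 overlapped. The mean of the 39 log2 values was 11.32, 11.34 and 11.42 in the Rluc arrays and 11.17 to 11.26 in the knockdown arrays.

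**Figure D1:**
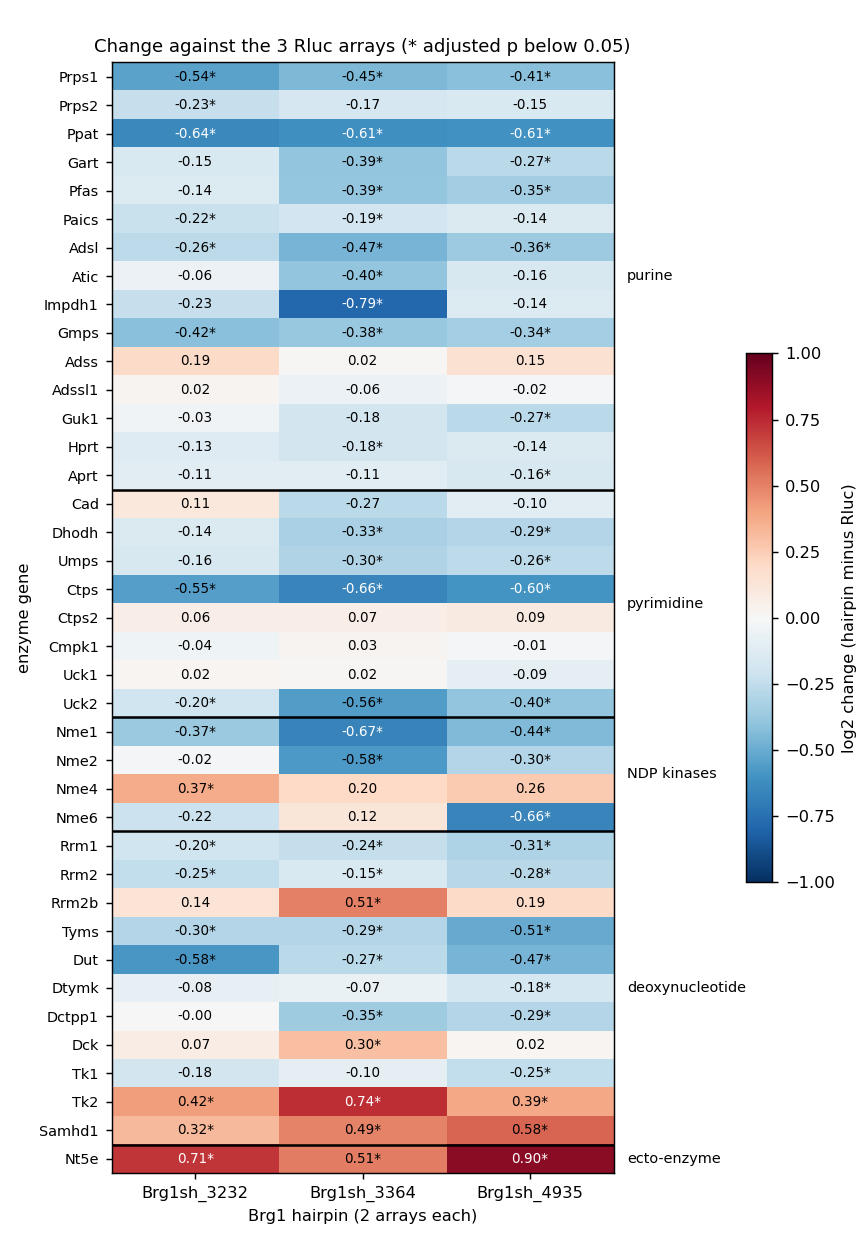
Log2 change of each of the 39 enzyme genes (rows, grouped by branch) with each Brg1 hairpin (columns, 2 arrays each) against the 3 Rluc arrays; blue is lower, red higher, and an asterisk marks a limma adjusted p below 0.05. Ppat is lower by 0.61 to 0.64 with every hairpin, Impdh1 by 0.79 with Brg1sh_3364, and Tk2, Samhd1 and Nt5e are red in every column.

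Most members of purine synthesis and salvage were called lower in the mean of the hairpins. In that mean 12 of its 15 members fell and none rose, where 15.0% of all genes fell and 13.3% rose. By limma 6 were lower with Brg1sh_3232, 10 with Brg1sh_3364 and 8 with Brg1sh_4935. The shares of all genes called lower there were 11.3%, 12.2% and 12.3%. At an unadjusted p below 0.05, 1 purine member was higher in the mean. With the 3 hairpin means taken as replicates, Prps1, Ppat, Adsl and Gmps stayed called lower. The calls of Prps2, Gart, Pfas, Paics, Atic, Impdh1, Hprt and Aprt were lost there (limma adjusted p = 0.0558 to 0.228). The branch averaged 11.62, 11.67 and 11.76 in the Rluc arrays and 11.34 to 11.49 in the knockdown arrays. Rluc replicate 3 was the highest control in this average, and it was also the highest for Prps1, Ppat, Adsl and Gmps below.

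The route starts with Prps1 and Prps2, synthetases that make phosphoribosyl pyrophosphate. Prps1 read 11.80, 11.92 and 12.18 in the Rluc arrays, 11.37 and 11.50 with Brg1sh_3232, 11.55 and 11.48 with Brg1sh_3364, and 11.56 and 11.55 with Brg1sh_4935. All 6 knockdown arrays lay below the controls, and the mean fall was 0.47 (SE 0.08, limma adjusted p = 0.00168). Prps2 read 11.94, 12.07 and 12.10 in Rluc and 11.72 to 11.90 in the 6 knockdown arrays. The groups were apart there too, by a small gap, and the mean fall of 0.19 (SE 0.05, limma adjusted p = 0.0215) was called with Brg1sh_3232 alone of the single hairpins. That mean call was lost without Rluc replicate 2 (limma adjusted p = 0.0839), Rluc replicate 3 (0.0916), Brg1sh_3364 replicate 2 (0.056) or Brg1sh_4935 replicate 2 (0.0574).

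Ppat, the amidotransferase of the committed step, showed the deepest mean fall among the probe sets that stand for the 39 genes. Its log2 values were 11.20, 11.30 and 11.48 in Rluc, 10.80 and 10.57 with Brg1sh_3232, 10.75 and 10.69 with Brg1sh_3364, and 10.76 and 10.68 with Brg1sh_4935. The highest knockdown array lay well below the lowest control. Ppat fell by 0.62 (SE 0.07, limma adjusted p = 0.000195), to 65.0% of control. The 3 hairpins gave falls of 0.64, 0.61 and 0.61, and no contrast between them was called for this gene.

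The enzymes that follow fell by less. Gart, which joins several enzyme activities in a single protein, fell by 0.27 in the mean (SE 0.05) and was called with Brg1sh_3364 (-0.39) and Brg1sh_4935 (-0.27). Pfas, which adds a nitrogen from glutamine, fell by 0.29 (SE 0.06), called with the same 2 hairpins (-0.39 and -0.35). Its arrays with these hairpins lay below the controls, and those with Brg1sh_3232 overlapped them. Paics, which adds the carboxyl and aspartate groups, fell by 0.19 (SE 0.04), with calls for Brg1sh_3232 (-0.22) and Brg1sh_3364 (-0.19). In RefSeq the spans of Ppat and Paics overlap by 277 bases on chromosome 5, where they lie head to head, and each has a probe set of its own. Atic, which closes the ring, was called with Brg1sh_3364 (-0.40) and not with Brg1sh_3232 (-0.06) or Brg1sh_4935 (-0.16). Its mean fall of 0.20 was -0.11 without Brg1sh_3364 and not called (limma adjusted p = 0.173).

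Adsl, a lyase used both on the way to IMP and in the branch to AMP, read 11.56, 11.66 and 11.78 in Rluc. It read 11.38 and 11.43 with Brg1sh_3232, 11.23 and 11.17 with Brg1sh_3364, and 11.30 and 11.31 with Brg1sh_4935. No knockdown array reached a control, and the mean fall was 0.36 (SE 0.05, limma adjusted p = 0.000638).

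Beyond IMP, Gmps and Impdh1 of the guanine branch fell in the mean, and the adenylosuccinate synthetases of the adenine branch were not called. Gmps, which aminates xanthosine monophosphate to GMP, read 11.64, 11.63 and 11.82 in Rluc, 11.35 and 11.20 with Brg1sh_3232, 11.35 and 11.28 with Brg1sh_3364, and 11.38 and 11.34 with Brg1sh_4935. Every knockdown array was lower than every control, and Gmps fell by 0.38 (SE 0.06, limma adjusted p = 0.000802). Impdh1, the dehydrogenase ahead of it, fell by 0.79 with Brg1sh_3364 (SE 0.07, limma adjusted p = 9.13e-05), the largest fall with any hairpin among the probe sets that stand for the 39 genes. Its changes with Brg1sh_3232 (-0.23) and Brg1sh_4935 (-0.14) were not called, and without Brg1sh_3364 its mean moved from -0.39 to -0.19 and was not called (limma adjusted p = 0.0538). Impdh2, the other gene for this dehydrogenase, had no probe set of its own, so the step was read from Impdh1 alone. Guk1, the GMP kinase, was called with Brg1sh_4935 alone (-0.27), and there not without Brg1sh_4935 replicate 1 (-0.14, limma adjusted p = 0.209) or without any 1 of the Rluc arrays (0.057 to 0.073).

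Adss, the adenylosuccinate synthetase of most tissues, read 12.43, 12.50 and 12.60 in Rluc, 12.74 and 12.66 with Brg1sh_3232, 12.54 and 12.51 with Brg1sh_3364, and 12.72 and 12.61 with Brg1sh_4935. The groups overlapped, and the mean change of 0.12 (SE 0.05, 95% interval 0.01 to 0.23) had a limma adjusted p of 0.108. Without Rluc replicate 3 it was called higher (0.16, limma adjusted p = 0.0443). Adssl1, its muscle-type relative, read 12.99, 13.05 and 13.00 in Rluc and 12.94 to 13.07 in the knockdown arrays. The control values lay inside the knockdown range, with a mean change of -0.02 (95% interval -0.10 to 0.06).

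Hprt and Aprt salvage purine bases on phosphoribosyl pyrophosphate. They fell by 0.15 and 0.12 in the mean, the smallest called falls among the 39 genes. Hprt was called with Brg1sh_3364 alone of the single hairpins and Aprt with Brg1sh_4935 alone. The mean call of Hprt was lost without Brg1sh_3364 replicate 2 (limma adjusted p = 0.0513), Rluc replicate 1 (0.0822) or Rluc replicate 3 (0.0662), and that of Aprt without Rluc replicate 2 (0.0524) or Rluc replicate 3 (0.0731).

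Pyrimidine synthesis fell in 4 of 8 members and rose in none, by limma in the mean of the hairpins. Over all genes 15.0% fell and 13.3% rose. At an unadjusted p below 0.05 there were also 4 lower and 0 higher. The 4 were Dhodh, Umps, Ctps and Uck2; with Brg1sh_3232, Ctps and Uck2 alone were called. Cad, which carries out the opening steps of the pathway in a single protein, ranged from 10.18 to 10.57 in the Rluc arrays and from 10.06 to 10.47 in the knockdown arrays. Its change was 0.11, -0.27 and -0.10 with the 3 hairpins, and none was called.

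Dhodh, the mitochondrial dehydrogenase that makes orotate, read 8.95, 9.0 and 9.0 in Rluc, 8.86 and 8.82 with Brg1sh_3232, 8.63 and 8.69 with Brg1sh_3364, and 8.67 and 8.71 with Brg1sh_4935. All knockdown arrays lay below the tight control group. Dhodh fell by 0.25 in the mean (SE 0.03, limma adjusted p = 0.000579), and its change with Brg1sh_3232 (-0.14) was not called (limma adjusted p = 0.0535). Umps, which turns orotate into UMP, fell by 0.24 (SE 0.04), also with its 6 arrays below the controls.

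CTP is made from UTP by CTP synthase, for which the mouse has the genes Ctps and Ctps2. Ctps read 10.11, 10.14 and 10.45 in Rluc, 9.69 and 9.68 with Brg1sh_3232, 9.62 and 9.53 with Brg1sh_3364, and 9.59 and 9.68 with Brg1sh_4935. The gap between the groups exceeded the spread of the knockdown arrays, and the fall of 0.60 (SE 0.07, limma adjusted p = 0.000298) left 65.9% of control. Ctps2 read 11.85, 11.88 and 11.92 in Rluc and 11.95 to 11.99 in the knockdown arrays. Those arrays all lay just above the controls, but the mean change of 0.07 (SE 0.03) was not called (limma adjusted p = 0.155).

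Uridine and cytidine are salvaged by the kinases Uck1 and Uck2. Uck2 read 13.03, 13.03 and 12.98 in Rluc, 12.80 and 12.84 with Brg1sh_3232, 12.48 and 12.43 with Brg1sh_3364, and 12.59 and 12.64 with Brg1sh_4935. The hairpins separated from the controls, with Brg1sh_3364 lowest in this probe set; the mean fall was 0.38 (SE 0.03, limma adjusted p = 5.04e-05). Another Uck2 probe set, 10359849, fell by 0.69 in the mean, with changes of -0.48, -0.80 and -0.80 that do not set Brg1sh_3364 below Brg1sh_4935. Both probe sets were called with every hairpin. Uck1 read 10.10, 10.09 and 10.11 in Rluc and 9.98 to 10.16 in the knockdown arrays, on either side of the controls, with a mean change of -0.02 (95% interval -0.10 to 0.06). Cmpk1, which phosphorylates UMP and CMP, changed by -0.01 (95% interval -0.12 to 0.10) and was not called.

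The nucleoside diphosphate kinases pass phosphate onto all nucleoside diphosphates, and the 4 in the list did not move in 1 direction. Nme1, a cytosolic form, read 10.68, 10.54 and 10.82 in Rluc, 10.32 and 10.30 with Brg1sh_3232, 10.04 and 9.99 with Brg1sh_3364, and 10.18 and 10.29 with Brg1sh_4935. Its groups did not overlap, and it fell by 0.49 (SE 0.06, limma adjusted p = 0.000281).

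Nme2, the other major cytosolic form, read 10.92, 10.83 and 10.92 in Rluc, 10.84 and 10.90 with Brg1sh_3232, 10.42 and 10.21 with Brg1sh_3364, and 10.54 and 10.64 with Brg1sh_4935. The Brg1sh_3232 arrays lay within the control range and the other 4 below it. Nme2 changed by -0.02, -0.58 and -0.30 with the 3 hairpins, and the mean fall was 0.30 (SE 0.05, limma adjusted p = 0.00265). Nme1 and Nme2 are related genes 2668 bases apart on chromosome 11 in RefSeq. Whether their probe sets separate the 2 genes was not checked.

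Nme4, the mitochondrial form, read 8.96, 9.14 and 9.23 in Rluc, 9.35 and 9.61 with Brg1sh_3232, 9.30 and 9.32 with Brg1sh_3364, and 9.30 and 9.45 with Brg1sh_4935. Every knockdown array was above the controls. The mean rise of 0.28 (SE 0.08, limma adjusted p = 0.0227) was called with Brg1sh_3232 alone of the single hairpins, and the mean call was lost without Rluc replicate 1 (limma adjusted p = 0.094), Rluc replicate 2 (0.0575), either Brg1sh_3364 array (0.0526 and 0.0588) or Brg1sh_4935 replicate 2 (0.0649).

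Nme6 rested on Brg1sh_4935. It read 12.29, 12.08 and 11.92 in Rluc, 11.87 and 11.89 with Brg1sh_3232, 12.21 and 12.23 with Brg1sh_3364, and 11.40 and 11.49 with Brg1sh_4935. The Brg1sh_3364 arrays fell inside the wide control range and the Brg1sh_4935 arrays far below it. The fall with Brg1sh_4935 was 0.66 (SE 0.09, limma adjusted p = 0.001). The mean fall of 0.25 (limma adjusted p = 0.0276) was lost on leaving out any array other than Rluc replicate 3 (0.0505 to 0.0755), and the mean was -0.05 without that hairpin. Another probe set, 10505922, was likewise called with Brg1sh_4935 (-0.57) and not with Brg1sh_3364 (-0.04), where the chosen one read 0.12.

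**Figure D2:**
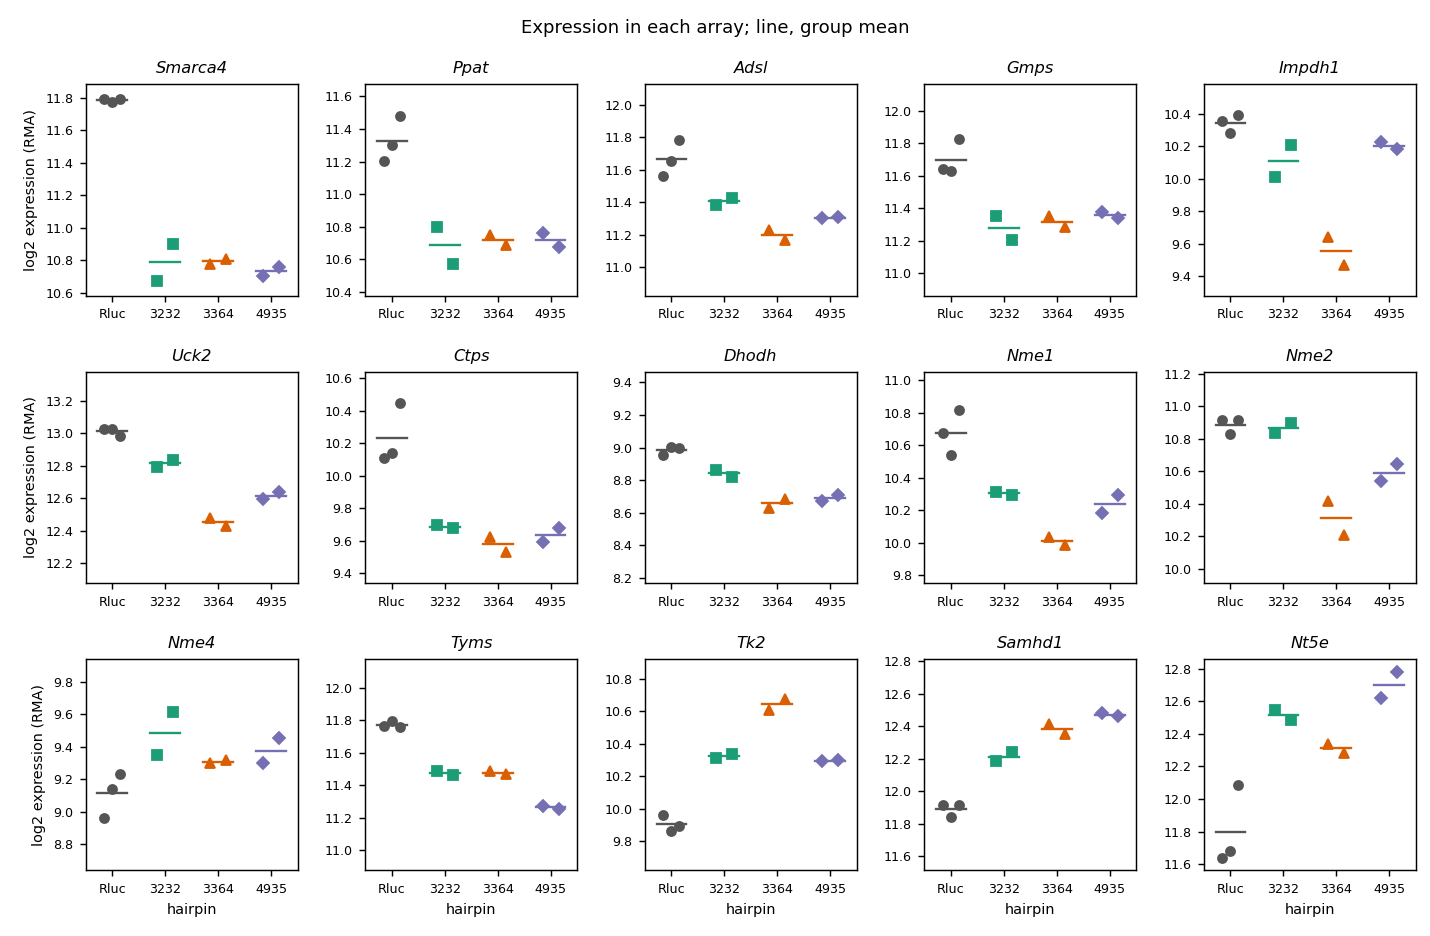
Log2 expression (RMA, vertical axis, own range in each panel) of Smarca4 and 14 enzyme genes in each of the 9 arrays, by hairpin; points are arrays and lines group means. The Rluc points lie above all knockdown points for Ppat, Adsl, Gmps, Uck2, Ctps, Dhodh, Nme1 and Tyms and below them for Nme4, Tk2, Samhd1 and Nt5e, while Nme2 with Brg1sh_3232 sits among the controls.

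Of 11 deoxynucleotide genes 6 fell and 3 rose in the mean of the hairpins. Over all genes 15.0% fell and 13.3% rose. In the fit of the 9969 genes at or above the median level, 2999 fell and 2548 rose. Rrm1, Rrm2, Tyms, Dut, Dctpp1 and Tk1 fell, and Rrm2b, Tk2 and Samhd1 rose. Rrm1, the large subunit of ribonucleotide reductase, fell by 0.25 (SE 0.04, limma adjusted p = 0.0014). Rrm2, the small subunit that rises in S phase, read 13.17, 13.15 and 13.22 in Rluc, 12.93 and 12.94 with Brg1sh_3232, 13.03 and 13.03 with Brg1sh_3364, and 12.91 and 12.90 with Brg1sh_4935. Replicates lay close together and no array overlapped the controls; the fall was 0.23 (SE 0.03, limma adjusted p = 0.000815).

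Rrm2b, the small subunit that p53 induces and that serves cells outside S phase, moved the other way. It read 9.21, 9.20 and 9.36 in Rluc, 9.40 and 9.39 with Brg1sh_3232, 9.86 and 9.67 with Brg1sh_3364, and 9.50 and 9.40 with Brg1sh_4935. The Brg1sh_3364 arrays stood highest. The mean rise was 0.28 (SE 0.06, limma adjusted p = 0.00522); of the hairpins Brg1sh_3364 alone was called (0.51, limma adjusted p = 0.000997), and without it the mean was 0.16 and not called (0.0645).

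Tyms, thymidylate synthase, had the smallest adjusted p of the falls in the mean contrast among the probe sets that stand for the 39 genes. It read 11.76, 11.79 and 11.76 in Rluc, 11.49 and 11.46 with Brg1sh_3232, 11.49 and 11.47 with Brg1sh_3364, and 11.27 and 11.25 with Brg1sh_4935. The groups formed 3 separate levels, and Tyms fell by 0.37 (SE 0.03, limma adjusted p = 4.35e-05), to 77.6% of control. Dut, which breaks down dUTP, fell by 0.58, 0.27 and 0.47 with the 3 hairpins. Dctpp1, a pyrophosphatase that clears dCTP and its analogues, was called lower with Brg1sh_3364 (-0.35) and Brg1sh_4935 (-0.29), not with Brg1sh_3232 (-0.00); its mean call was lost without Rluc replicate 1 (limma adjusted p = 0.0694). Dtymk, thymidylate kinase, was called with Brg1sh_4935 alone (-0.18, limma adjusted p = 0.0336).

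Deoxynucleoside salvage is shared among Tk1, the cytosolic thymidine kinase of S phase, Tk2, its mitochondrial counterpart, and Dck, deoxycytidine kinase. Tk2 read 9.96, 9.86 and 9.90 in Rluc, 10.31 and 10.34 with Brg1sh_3232, 10.61 and 10.68 with Brg1sh_3364, and 10.29 and 10.30 with Brg1sh_4935. Every knockdown array was above the controls by more than the spread within any group. Tk2 rose by 0.52 (SE 0.04, limma adjusted p = 1.38e-05), to 143% of control.

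Tk1 read 11.59, 11.79 and 11.60 in Rluc, 11.41 and 11.55 with Brg1sh_3232, 11.57 and 11.55 with Brg1sh_3364, and 11.42 and 11.41 with Brg1sh_4935. The gap to the controls was narrow, and the mean fall was 0.18 (SE 0.05, limma adjusted p = 0.0371). That call was lost without any of 6 arrays: Brg1sh_3232 replicate 1, either array of Brg1sh_3364 or of Brg1sh_4935, or Rluc replicate 2 (limma adjusted p = 0.0712 to 0.142). Another Tk1 probe set, 10393431, changed by -0.13 and was not called (limma adjusted p = 0.142). Dck read 11.16, 11.25 and 11.23 in Rluc, 11.27 and 11.31 with Brg1sh_3232, 11.57 and 11.47 with Brg1sh_3364, and 11.31 and 11.17 with Brg1sh_4935. Brg1sh_3364 stood above the rest, and its rise of 0.30 (SE 0.06, limma adjusted p = 0.0052) was lost without Brg1sh_3364 replicate 1 (0.057).

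Samhd1 works against synthesis: it hydrolyses deoxynucleoside triphosphates and is abundant in myeloid cells. It read 11.91, 11.85 and 11.91 in Rluc, 12.19 and 12.24 with Brg1sh_3232, 12.41 and 12.35 with Brg1sh_3364, and 12.48 and 12.46 with Brg1sh_4935. No array overlapped the controls, and Samhd1 rose by 0.47 (SE 0.04, limma adjusted p = 2.32e-05), to 138% of control. Nt5e, the surface enzyme CD73 that makes adenosine from extracellular AMP, read 11.64, 11.68 and 12.08 in Rluc, 12.54 and 12.48 with Brg1sh_3232, 12.34 and 12.29 with Brg1sh_3364, and 12.62 and 12.78 with Brg1sh_4935. Rluc replicate 3 stood nearest to the knockdown arrays and still below them. Nt5e rose by 0.71 (SE 0.09, limma adjusted p = 0.000465), to 164% of control, the largest mean change of the 39 genes. The call with Brg1sh_3364 was lost without either of its arrays (limma adjusted p = 0.092 and 0.068).

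Genes of S phase and mitosis fell beside the deoxynucleotide genes. Of 21 S phase genes, such as the Mcm helicase subunits, 15 fell and none rose in the mean by limma (17 lower and 0 higher at an unadjusted p below 0.05), with medians of -0.19, -0.23 and -0.30 for the 3 hairpins. Their average was 11.61 to 11.62 in the Rluc arrays and 11.27 to 11.40 in the knockdown arrays. Of 10 mitosis genes 8 fell in the mean. Over all genes 15.0% fell and 13.3% rose. The part of a change in cycling, or of the macrophage markers given above, in the enzymes' changes was not tested.

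Related enzymes that carry out the same reaction were set against each other in every array, so that an offset of a whole array cancels. For 7 pairs, the difference in the 6 knockdown arrays was compared with that in the 3 Rluc arrays by a two-sided exact permutation test, adjusted over the 7 pairs; the smallest p this design allows is 0.0238. Tk2 gained on Tk1 by 0.69, Ctps2 on Ctps by 0.67, Rrm2b on Rrm2 by 0.51 and Prps2 on Prps1 by 0.28, and Uck2 lost 0.37 against Uck1. In each of these 5 pairs the groups did not overlap (exact p = 0.0238, adjusted p = 0.0333). Any pair whose groups do not overlap reaches this p. The test takes the 6 knockdown arrays as replicates of the same condition, although they come from 3 hairpins. Tk2, Rrm2b and Uck2 were themselves called between hairpins, so for their pairs in particular the p describes the separation of these arrays only. The knockdown arrays spanned -3.55 to -3.16 for Rrm2b minus Rrm2, and the Rluc arrays -3.96 to -3.86.

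The other pairs overlapped. Nme2 gained 0.20 on Nme1 (exact p = 0.0714, adjusted p = 0.0833), and Adssl1 lost 0.14 against Adss (exact p = 0.0952, adjusted p = 0.0952). Within the 5 pairs whose groups did not overlap, Ctps, Uck2, Rrm2 and Prps1 were the partners called lower with all 3 hairpins, while Ctps2 and Uck1 were called with none. Without 1 Rluc array or 1 hairpin the design cannot pass the adjusted threshold, as the smallest exact p is then 0.0714 or 0.0571.

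**Figure D3:**
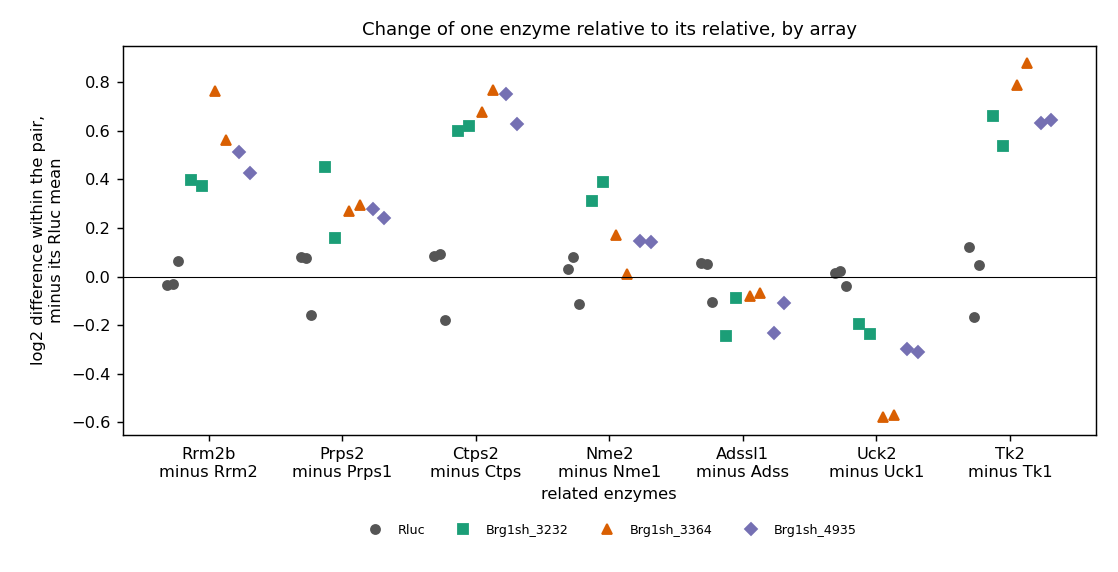
Log2 difference between the genes of each of 7 related pairs in each array (vertical axis), after subtracting the mean of the 3 Rluc arrays; symbols are single arrays. The 6 knockdown arrays stand clear of the Rluc arrays for Rrm2b minus Rrm2, Prps2 minus Prps1, Ctps2 minus Ctps, Uck2 minus Uck1 and Tk2 minus Tk1, and overlap them for Nme2 minus Nme1 and Adssl1 minus Adss.

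Direct contrasts between hairpins, which do not use the Rluc arrays as a reference, gave calls only where Brg1sh_3364 was 1 of the hairpins compared. Between Brg1sh_3364 and Brg1sh_3232, 9 of 39 members were called (6 lower, 3 higher with Brg1sh_3364), where 9.66% of all genes were. Between Brg1sh_3364 and Brg1sh_4935, 7 were called (2 lower, 5 higher), where 7.61% of all genes were. Between Brg1sh_4935 and Brg1sh_3232 limma called 0 of 39 (1 higher and 8 lower at an unadjusted p below 0.05), where 1.02% of all genes were called. No member lay below the median level of all genes. With the 9969 genes at or above that level fitted alone, 2307, 1654 and 394 genes were called in these contrasts, in the order given. Each is a larger share than over all genes, so the shares of all genes above are not matched in level. Across these contrasts 12 genes made 16 calls, and 7 of the calls held when each array was left out in turn: Impdh1 and Tk2 in both contrasts, Uck2 and Nme2 against Brg1sh_3232, and Nme6 against Brg1sh_4935. The count of 9 fell to 4 without Brg1sh_3232 replicate 2 and to 5 without either Brg1sh_3364 array. The count of 7 was 3 without Brg1sh_3364 replicate 2 or either Brg1sh_4935 array, and 4 without Brg1sh_3364 replicate 1, either Brg1sh_3232 array or Rluc replicate 2.

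In purine and pyrimidine synthesis, each call between hairpins was lower with Brg1sh_3364. Impdh1 read 10.35, 10.28 and 10.39 in Rluc, 10.01 and 10.21 with Brg1sh_3232, 9.64 and 9.47 with Brg1sh_3364, and 10.22 and 10.18 with Brg1sh_4935. The Brg1sh_3364 arrays lay far below the other 7, by 0.55 against Brg1sh_3232 and 0.65 against Brg1sh_4935 (SE 0.08 each, limma adjusted p = 0.00401 and 0.00219). Uck2 was lower by 0.36 than with Brg1sh_3232 (limma adjusted p = 0.00266). Atic was lower by 0.34 against Brg1sh_3232 (limma adjusted p = 0.0101) and by 0.24 against Brg1sh_4935 (0.049), and Dhodh by 0.18 against Brg1sh_3232 (0.0488). Outside these branches, the kinase Nme2 was lower by 0.55 against Brg1sh_3232 (limma adjusted p = 0.00294). Dctpp1 of the deoxynucleotide branch was lower by 0.35 (0.0237), against the direction of the other calls in that branch. Among the hairpins, with Rluc left out, 8 of the 15 purine and 5 of the 8 pyrimidine members had their lowest mean with Brg1sh_3364. Of the 11 deoxynucleotide members 1 did and 7 had it with Brg1sh_4935. The mean in Rluc was lower still for Adss, counted with Brg1sh_3364, and for Tk2 and Dck, counted with Brg1sh_4935. These counts take in differences that were not called, and the matching shares of all genes were not counted. They therefore do not show a difference between the branches.

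Tk2 was higher with Brg1sh_3364 than with Brg1sh_3232 by 0.32 (SE 0.05, limma adjusted p = 0.00627) and than with Brg1sh_4935 by 0.35 (0.00475). Rrm2b was higher by 0.37 (limma adjusted p = 0.0223) and 0.32 (0.0481), Dck by 0.28 against Brg1sh_4935 (0.0343), Tyms by 0.21 against Brg1sh_4935 (0.0233) and Dut by 0.30 against Brg1sh_3232 (0.0457). The difference was above 0 for 9 of 11 deoxynucleotide genes in each of these contrasts, and for 9302 and 9781 of 19937 genes overall. Of the cell cycle genes, 10 of 10 mitosis genes were above 0 in both contrasts. The 21 S phase genes differed between the contrasts: 8 were above 0 and 13 below against Brg1sh_3232, and 20 were above against Brg1sh_4935. Few were called (2 and 0 mitosis genes, 1 and 0 S phase genes). Nme6 was higher by 0.78 against Brg1sh_4935 (SE 0.10, limma adjusted p = 0.00254). No contrast between hairpins was called for Smarca4. Myc was lower with Brg1sh_3364 than with Brg1sh_3232 by 0.75 and than with Brg1sh_4935 by 0.47, and 4 of 8 and 5 of 8 macrophage markers were called lower in the same contrasts. The part of Myc, of cycling or of these markers in these differences was not tested.

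**Figure D4:**
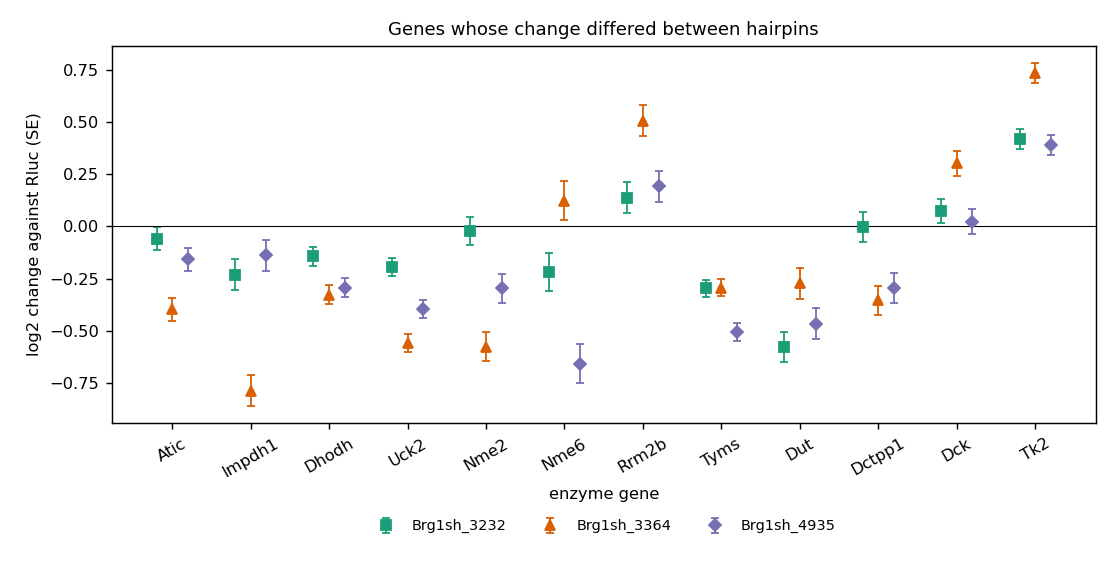
Log2 change against the 3 Rluc arrays (vertical axis) for the 12 enzyme genes called between hairpins, with Brg1sh_3232, Brg1sh_3364 and Brg1sh_4935 side by side; bars are the SE of the limma fit. Impdh1 with Brg1sh_3364 (-0.79) and Nme6 with Brg1sh_4935 (-0.66) stand far below the other hairpins, and Tk2 and Rrm2b are highest with Brg1sh_3364.

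The neighbouring reactions were read from 44 further genes of salvage, breakdown, transport and folate metabolism, of which 37 had a probe set of their own. They gave 19 falls and 5 rises in the mean, where 15.0% of all genes fell and 13.3% rose. The fall with the smallest p was that of Ada, adenosine deaminase, by 0.98 (SE 0.05, limma adjusted p = 2.37e-06). Mthfd1 and Shmt1, which supply the folate carbon units used in purine and thymidylate synthesis, fell by 0.61 (SE 0.04) and 0.69 (SE 0.05). Ak1, an adenylate kinase, fell by 0.70, Adk, adenosine kinase, by 0.53, and Ampd2, AMP deaminase, by 0.40. The 5 that rose were Gda (0.38), which deaminates guanine, Entpd1 (0.38), the surface enzyme CD39 that makes the AMP that Nt5e uses, Upp1 (0.31), a uridine phosphorylase, the mitochondrial salvage kinase Dguok (0.22) and the kinase Nme3 (0.27).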

How the data were processed

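Total RNA was hybridised to 9 Affymetrix whole-transcript arrays. The authors deposited log2 expression values per probe set, which per the submitters' processing notes come from RMA. Its version, the array's genome build and scan batches: not given in the sources used here. Of 34760 probe sets 21640 had 1 gene symbol, 1321 had several and 11799 none. For a gene with several probe sets the brightest on average was used. limma 3.58.1 (R 4.3.3) fitted a mean for each group over all arrays (eBayes, two-sided, 5 residual and 3.85 prior degrees of freedom), with calls at adjusted p below 0.05 by Benjamini-Hochberg over 19937 genes. The fit was tested on simulated data. Pairs of enzymes were tested with an exact permutation in SciPy 1.17.1. The control arrays serve all 3 hairpins, so those comparisons are not independent. The number of arrays limits precision. All 39 members matched RefSeq by Entrez identifier.

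The members and lists were chosen with earlier results of these data known. Array values are given for the 3 members with the smallest p in each branch, every member called higher with any hairpin, both genes of each pair, and members that stood out between hairpins (Nme6 and Impdh1 were printed after their values were seen). Other pathway genes named are the 6 with the smallest p and every one that rose. Alternatives were other normalizations, filters, probe set rules, variance models, a replicate block, a stricter threshold, the hairpin means as 3 replicates, and leaving out each array or hairpin. Same-numbered arrays did not deviate together throughout (correlations -0.07 to 0.25), so numbers were not used as pairs.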

Additional observations from a re-analysis of the deposited data

Results flagged for a closer look

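These 16 differences between hairpins passed the limma threshold (adjusted p below 0.05 over all genes) in a direct contrast, and each is given as the value with Brg1sh_3364 minus that with the other hairpin. Against Brg1sh_3232 they were -0.34 for Atic, -0.55 for Impdh1, -0.18 for Dhodh, -0.36 for Uck2, -0.55 for Nme2, -0.35 for Dctpp1, 0.37 for Rrm2b, 0.30 for Dut and 0.32 for Tk2. Against Brg1sh_4935 they were -0.24 for Atic, -0.65 for Impdh1, 0.78 for Nme6, 0.32 for Rrm2b, 0.21 for Tyms, 0.28 for Dck and 0.35 for Tk2. Of these, 9 lost their call when some array was left out: Atic and Rrm2b in both contrasts, and Dhodh, Dut, Dctpp1, Tyms and Dck. No cause of these differences was tested.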

How the results depend on the processing

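With 2 or 3 arrays a group, small changes sit near the threshold. Of 5031 member changes recomputed under an alternative, 4687 kept their direction and side of the threshold, 241 lost the call and 103 gained it. No called value turned its sign; 81 sign changes concerned values called in neither setting.

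Leaving out each array gave 12 to 19 called members for Brg1sh_3232 (17 with all arrays), 17 to 28 for Brg1sh_3364 (26), 16 to 25 for Brg1sh_4935 (25) and 25 to 29 for the mean of the hairpins (30). Between hairpins it gave 4 to 13 for Brg1sh_3364 against Brg1sh_3232 (9), 3 to 8 against Brg1sh_4935 (7) and 0 to 2 for Brg1sh_4935 against Brg1sh_3232 (0). For the pairs of enzymes it gave 0 to 6 (5), and 0 on leaving out any hairpin, because too few arrays remain to pass the threshold. Fitting only the groups compared gave 10 for Brg1sh_3232, and 4 in each contrast of Brg1sh_3364 with another hairpin. At an adjusted p below 0.01, 11 remained called for Brg1sh_3232, 4 for Brg1sh_3364 against Brg1sh_3232 and 3 against Brg1sh_4935. Testing genes at or above the median level gave 15 for Brg1sh_3364 against Brg1sh_3232 and 3 for Brg1sh_4935 against Brg1sh_3232. The last contrast also gave 1 after a further quantile normalization, 3 with trended robust eBayes and 2 with array weights.

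Taking the 3 hairpin means as replicates left 16 members called in the mean contrast, with Atic (limma adjusted p = 0.228), Impdh1 (0.195), Nme2 (0.211), Nme6 (0.517) and Rrm2b (0.147) among those lost. Leaving out a hairpin lost the mean call of Atic, Impdh1, Hprt, Rrm2b and Dctpp1 (without Brg1sh_3364), of Aprt, Nme6, Dctpp1 and Tk1 (without Brg1sh_4935) and of Nme4, Nme6 and Tk1 (without Brg1sh_3232). The fit with the replicate block gave 17, 23 and 24 called members for the hairpins in the order used above, 26 for their mean, and 11, 7 and 1 between hairpins; the numbers do not mark a known pairing. The cause of these shifts was not tested, apart from the smaller number of arrays or genes in some fits.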
